A study of Mus musculus with 4 samples.

Results

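The 10 genes studied here carry glucose carbon to pyruvate and lactate and were followed in hair follicle bulge cells of mice with endothelial loss of Alk1 and of control littermates. Slc2a1, Hk1, Hk2, Pkm, Ldha, Ldhb, Slc16a1, Mpc1, Mpc2 and Pdk1 were chosen by name for their place in the pathway, and all 10 were found by symbol among the 55536 genes of the count table and passed the filter on low counts that left 14259 genes. None of them differed between knockout and control libraries past the test's threshold, and for 6 of the 10 the 95% interval of the difference lay inside 1.5-fold in either direction.

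The study compared 2 bulge cell libraries from Cdh5CreERT2; Alk1 flox/flox mice with 2 from Cre-negative littermates, all on a C57BL/6 background. Every animal, control or knockout, received 100 µg of tamoxifen per g by intraperitoneal injection on postnatal day 17, and RNA was taken on day 20. The Cdh5 promoter restricts the tamoxifen-dependent recombinase to endothelial cells, so the deletion is directed at vessels and not at the bulge cells that were sequenced. The titles number the libraries 1 and 2 within each group and write "mice" in the plural. The sources used here do not say whether a library pools animals, how bulge cells were isolated, or which Alk1 alleles the controls carried, and p-values measure only the spread between these libraries.

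Glucose enters keratinocytes through facilitative transporters such as GLUT1, is trapped by hexokinase and is broken down to pyruvate, with pyruvate kinase at the last step. Pyruvate then either becomes lactate through lactate dehydrogenase, and can leave the cell through monocarboxylate transporters, or enters mitochondria through the mitochondrial pyruvate carrier to be oxidised. In mice, hair follicle stem cells are known for high lactate dehydrogenase activity around the start of a new hair cycle: deletion of Ldha in these cells holds back their activation and deletion of Mpc1 brings it forward.

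For the 3 genes that act on lactate itself, the 250 bases before an annotated start (RefSeq, GRCm38.p6) are given in lower case, to show where a short motif lies; for Ldha, which has 2 annotated starts, the upstream one is given. Capitals mark ACGTG on either strand, a form of the core of the site read by hypoxia-inducible factor. The other form, GCGTG, was not searched for and stays in lower case, as in the Ldhb window. ACGTG is also part of CACGTG, read by MYC and related factors. Where the strands overlap, as in CACGTG, the match was counted once. The window of Ldha lies at chr7:46845554-46845803 on the plus strand, with its start 35 bases before the nearest GENCODE start. The window of Ldhb lies at chr6:142507958-142508207 on the minus strand and that of Slc16a1 at chr3:104638414-104638663 on the plus strand.
Ldha: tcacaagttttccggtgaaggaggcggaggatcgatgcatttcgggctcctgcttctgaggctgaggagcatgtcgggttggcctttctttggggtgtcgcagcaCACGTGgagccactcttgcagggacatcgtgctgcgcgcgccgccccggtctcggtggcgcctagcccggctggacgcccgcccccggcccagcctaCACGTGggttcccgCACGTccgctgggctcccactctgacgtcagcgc
Ldhb: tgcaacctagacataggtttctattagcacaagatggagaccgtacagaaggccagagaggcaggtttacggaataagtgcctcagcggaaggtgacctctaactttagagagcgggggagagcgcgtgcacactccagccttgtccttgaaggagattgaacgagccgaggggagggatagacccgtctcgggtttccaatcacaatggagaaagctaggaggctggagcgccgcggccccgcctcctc
Slc16a1: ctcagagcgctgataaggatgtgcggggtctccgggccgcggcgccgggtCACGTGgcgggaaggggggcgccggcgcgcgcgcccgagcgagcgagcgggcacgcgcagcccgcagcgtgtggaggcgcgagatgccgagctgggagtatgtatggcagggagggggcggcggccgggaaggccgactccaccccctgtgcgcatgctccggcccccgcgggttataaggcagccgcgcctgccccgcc
This Ldha window held 3 matches to ACGTG, that of Slc16a1 held 1 and that of Ldhb held 0. The window of the other Ldha start (chr7:46846832-46847081), which coincides with a GENCODE start, held 0 as well. Of 32851 such windows in the table, 16.6% held at least 1 match and 0.256% held 3 or more. Over the 15 annotated starts of the 10 genes, 5 windows (33.3%) held a match, and the further ones were at Hk2, Slc2a1 and another start of Pkm. A match is a run of letters and was not tested for binding.

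The libraries held 21237843 to 22261317 counts in knockouts and 16326906 to 29130974 in controls, and replicates of 1 group differed by far more than sampling noise (chi-square per degree of freedom 41.9 between knockouts and 31.6 between controls). The targeted gene, Acvrl1 (Alk1), measured 17.9 and 23.1 CPM (counts scaled to a common library size by TMM) in knockouts, against 21.6 and 24.3 CPM in controls, which does not check an endothelial deletion in bulge cells. Blood endothelial markers were near absent, with 9 genes summing to 5.56 and 16.1 CPM in knockouts and 10.8 and 6.13 CPM in controls. Bulge markers (12 of 12 detected) summed to 82474 and 73973 CPM in knockouts and 67383 and 79503 CPM in controls. Krt15 and Krt5 made up most of each sum, which therefore mainly follows these keratins. Cd34 measured 1806 and 1328 CPM in knockouts and 1585 and 1949 CPM in controls. Krt10, listed for interfollicular differentiation, measured 4179 and 1768 CPM in knockouts and 6678 and 1974 CPM in controls. Genes listed for hair germ and inner bulge (5 of 5 detected) summed to 2421 and 2254 CPM in knockouts and 1750 and 1586 CPM in controls. Krt6a and Krt17 made up most of each sum, which mainly follows these keratins. Both knockouts lay above both controls in the sum and for 3 of the 5 genes, and below for 0. Of all tested genes, 21.3% lay above in this way and 23.6% below. On the bulge list 3 of 12 genes lay above and 1 below. The part of these genes in the results was not tested. Markers of interfollicular differentiation (7 of 7 detected) varied more within groups, summing to 8008 and 3632 CPM in knockouts and 12177 and 4128 CPM in controls, so that replicate 1 was the higher library within each group. Other summed levels were 464 and 348 CPM in knockouts and 735 and 441 CPM in controls for 7 sebaceous gland genes, 136 and 140 CPM in knockouts and 183 and 233 CPM in controls for 7 fibroblast genes, and 59.6 and 58.1 CPM in knockouts and 57.7 and 49.7 CPM in controls for 7 immune genes. Melanocyte, muscle and red cell lists summed to at most 16.0 CPM in each library, with Myh4 at 0 in all 4. For the fibroblast genes both knockout sums lay below both controls, and for the immune and red cell genes above. Col1a1 and Col1a2 made up most of each fibroblast sum, and Cd74 and H2-Aa most of each immune sum. Gene by gene, both knockouts lay below both controls for 2 of 7 fibroblast genes and above for 1. These counts were 2 below and 2 above for the 7 immune genes, and 0 below and 2 above for the 5 red cell genes. In bulk RNA, fewer cells of a type and less RNA per cell cannot be told apart.

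Genes can be ranked against each other only per length, for which TPM (counts per exon length, scaled to the same sum in each library) was computed with the union of each gene's annotated exons. Pkm led in all 4 libraries, with a mean of 476 TPM (range 417 to 518), above 98.2% of tested genes. Ldha followed at 380 TPM (301 to 442), above 97.8% of tested genes, and its range over libraries overlapped that of Pkm. Ldhb came next at 115 TPM (109 to 119), apart from Ldha and from Hk1 at 86.7 TPM (78.6 to 96.6). The ranges of Hk1 and Hk2 touched, and Hk2 (60.3 TPM), Slc2a1 (50.1 TPM), Mpc1 (41.8 TPM) and Pdk1 (38.9 TPM) formed a run in which neighbouring ranges overlapped. Mpc2 (15.2 TPM) and Slc16a1 (5.51 TPM, 4.68 to 7.51) lay below, each apart from its neighbours, and Slc16a1 stood above only 29.8% of tested genes. Pkm, Ldha and Slc16a1 kept the first, second and last place when the longest protein-coding transcript gave the length, a choice added after seeing the data. Ldhb and Hk1 changed places under that length, with Hk1 at 114 to 140 TPM and Ldhb at 95.6 to 105 TPM, and also with the longest transcript of any kind. Mpc2 moved from place 9 to place 5 (78.9 TPM), since its annotated exons span 7344 bases and its longest coding transcript 1025.

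**Figure D1:**
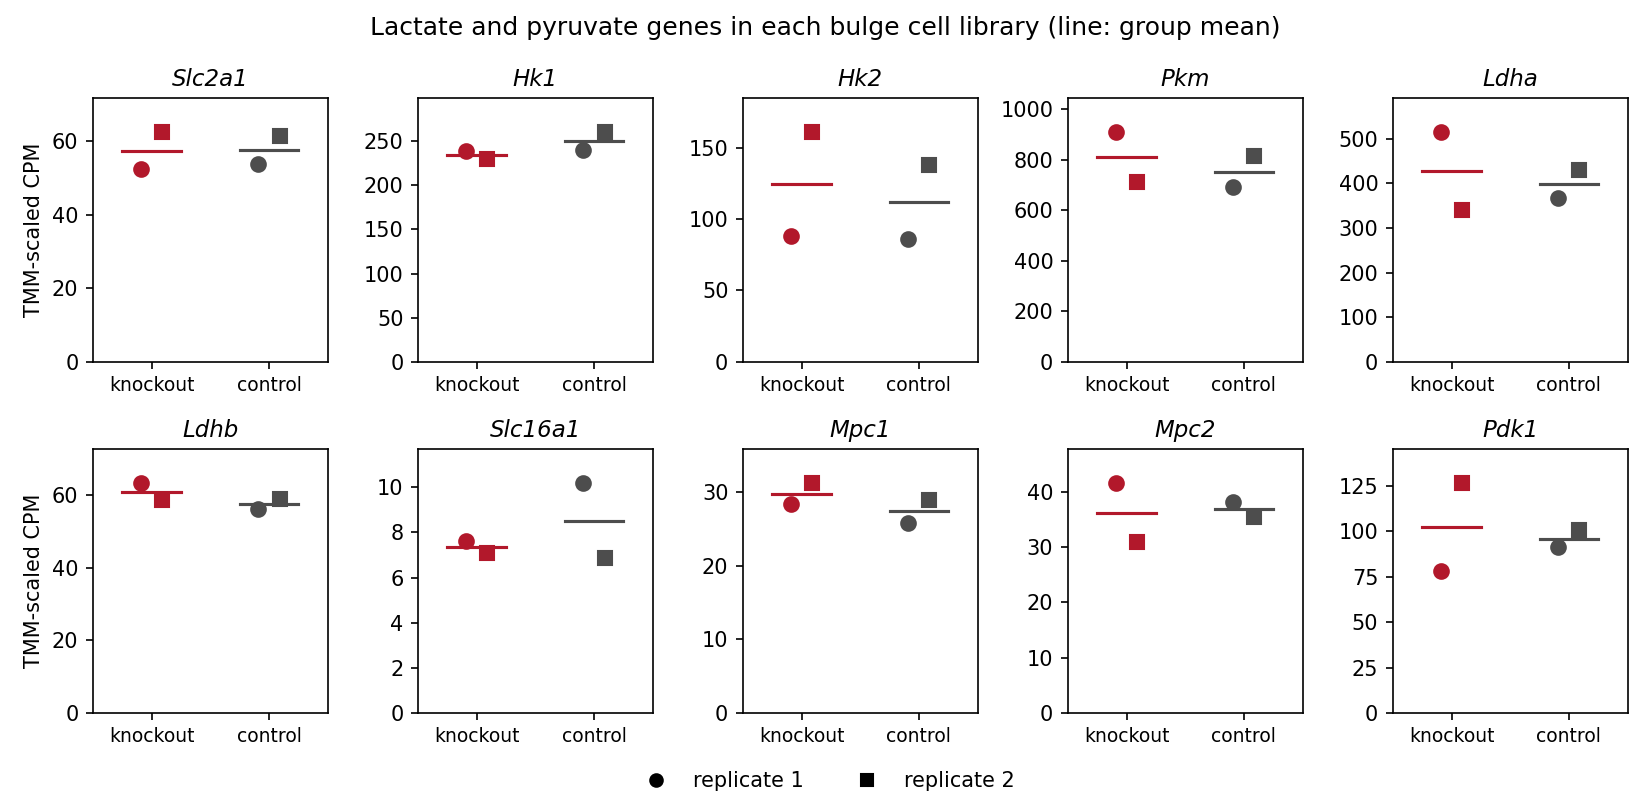
TMM-scaled CPM of the 10 genes (vertical axes, from 0) in the 2 knockout (red) and 2 control (grey) libraries; circles are replicate 1, squares replicate 2, and lines the group means. Only in the panel of Hk1 do both knockout points (238 and 229 CPM) lie below both controls (240 and 260 CPM).

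The uptake of glucose is the first step of the pathway. Slc2a1 (ENSMUSG00000028645, chr4:119108711-119137983), which encodes the transporter GLUT1, measured 52.5 and 62.4 CPM in knockouts, against 53.9 and 61.3 CPM in controls. Replicate 2 was the higher library in each group and the groups overlapped. Its log2 fold change was -0.0043 ± 0.15 (SE; edgeR adjusted p = 0.99), with a 95% interval from 0.78-fold to 1.27-fold; this sign, so close to 0, turned with RLE scaling, DESeq2 and removal of the length and GC trend. GLUT1 was the leading member of its family of 12 transporters, at 48.0% and 50.9% of their summed TPM in knockouts and 42.7% and 50.7% in controls. Slc2a12 and Slc2a8 made up most of the remainder.

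Hexokinase traps glucose as its phosphate, with HK1 as the widespread form and HK2 as the form that hypoxia and growth signals induce in many tissues. Hk1 (ENSMUSG00000037012, chr10:62268855-62379908) measured 238 and 229 CPM in knockouts, against 240 and 260 CPM in controls. It was the only gene of the 10 whose groups did not overlap, by a margin smaller than the gap between the controls. Groups did not overlap for 44.9% of all tested genes, since both knockouts lay below both controls for 23.6% of all tested genes and above them for 21.3%. Its log2 fold change was -0.10 ± 0.12 (edgeR adjusted p = 0.77; 0.77-fold to 1.14-fold). Hk1 is a long gene model (8532 exon bases), and with the trend of fold change on exon length and GC content removed the value was 0.061.

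Hk2 (ENSMUSG00000000628, chr6:82725025-82774454) measured 88.3 and 161 CPM in knockouts, against 86.1 and 138 CPM in controls. Replicate 2 exceeded replicate 1 by 1.82-fold in knockouts and by 1.60-fold in controls, which made Hk2 the most variable of the 10 genes and left the groups overlapping. Its log2 fold change of 0.15 ± 0.33 (edgeR adjusted p = 0.88) had the widest interval of the 10 genes, 0.63-fold to 1.94-fold. The level of Hk1 over Hk2 per length was 1.89 and 1.00 in knockouts and 1.95 and 1.31 in controls, and with the longest coding transcript as the length it was 3.48 and 1.84 in knockouts and 3.59 and 2.42 in controls. Hkdc1, a further hexokinase gene, had 0 to 4 counts per library, and Hk3 had 0 in each.

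Pyruvate kinase makes pyruvate. Pkm (ENSMUSG00000032294, chr9:59656368-59679375) measured 909 and 713 CPM in knockouts, against 691 and 814 CPM in controls. Knockout 1 was the highest library and control 1 the lowest, so that the groups overlapped, with a log2 fold change of 0.11 ± 0.17 (edgeR adjusted p = 0.82; 0.81-fold to 1.43-fold). Gene counts do not separate the PKM1 and PKM2 splice forms. Pklr, which encodes the form of liver and red cells, had 0 or 1 count per library.

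Lactate dehydrogenase is a tetramer of A and B subunits, of which A, from Ldha, favours the making of lactate and B, from Ldhb, its return to pyruvate. Ldha (ENSMUSG00000063229, chr7:46841475-46855627) measured 514 and 341 CPM in knockouts, against 368 and 430 CPM in controls. Both control libraries lay between the 2 knockouts. Over all 4 libraries Ldha had a log2 fold change of 0.10 ± 0.21 (edgeR adjusted p = 0.88; 0.75-fold to 1.54-fold), and it was 0.37 without knockout 2 and -0.23 without knockout 1. Ldha was highest in knockout 1, which also had more interfollicular marker RNA than knockout 2, but within controls the library with more of that RNA, control 1, had less Ldha; the part of those cells in the result was not tested. The copies annotated as Ldha-ps and Ldha-ps2 hardly drew reads, at 0 to 3 counts per library, and copies under other names were not searched for.

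Ldhb (ENSMUSG00000030246, chr6:142490249-142507957) was the steadiest gene of the 10, at 63.2 and 58.7 CPM in knockouts, against 56.3 and 59.0 CPM in controls. The highest and lowest libraries differed by 1.12-fold, and Ldhb had a log2 fold change of 0.08 ± 0.12 (edgeR adjusted p = 0.82; 0.86-fold to 1.30-fold). Per length, Ldha exceeded Ldhb by 3.86 and 2.75 times in knockouts and by 3.10 and 3.46 times in controls, or 79.4% and 73.4% of subunit TPM in knockouts, against 75.6% and 77.6% in controls. With the longest coding transcript as the length, the excess was 5.84 and 4.17 times in knockouts and 4.70 and 5.24 times in controls. Ldhc, the testis form, had 0 or 1 count per library.

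Slc16a1 (ENSMUSG00000032902, chr3:104638668-104658462) encodes MCT1, which moves lactate and pyruvate with protons across the plasma membrane. It measured 7.63 and 7.09 CPM in knockouts, against 10.2 and 6.88 CPM in controls, from 148 to 203 counts per library. Only control 1 stood higher, and the knockouts lay between the controls. Knockout over control was -0.21 ± 0.27 on the log2 scale (edgeR adjusted p = 0.79; 0.55-fold to 1.37-fold), and without control 1 it was 0.10. Ldha exceeded Slc16a1 by 90.0 and 64.3 times per length in knockouts and by 48.3 and 83.6 times in controls, or by 164 and 117 times in knockouts and 88.1 and 153 times in controls with the longest coding transcript. Slc16a7, which encodes MCT2, took 51.4% and 61.3% of the TPM of the 4 proton-linked transporters in knockouts and 49.1% and 63.2% in controls, against 45.6% and 35.3% in knockouts and 46.3% and 34.8% in controls for Slc16a1. Slc16a3, the lactate exporter MCT4 of glycolytic tissues, had 13 to 18 counts per library.

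The pyruvate carrier is a complex of MPC1 and MPC2, both needed for its activity. Mpc1 (ENSMUSG00000023861, chr17:8282904-8297661) measured 28.4 and 31.2 CPM in knockouts, against 25.9 and 29.0 CPM in controls. Replicate 2 was the higher library in each group and the groups overlapped, with a log2 fold change of 0.12 ± 0.15 (edgeR adjusted p = 0.77; 0.85-fold to 1.39-fold). Mpc1-ps, an annotated copy, held 7.24% as many counts as Mpc1, so that reads of the pair may be split. Mpc2 (ENSMUSG00000026568, chr1:165460637-165481214) measured 41.5 and 30.8 CPM in knockouts, against 38.2 and 35.4 CPM in controls. Both controls lay between the knockouts, and Mpc2 had a log2 fold change of -0.02 ± 0.18 (edgeR adjusted p = 0.97; 0.73-fold to 1.32-fold), and correction for exon length and GC content gave 0.10. The level of Mpc1 over Mpc2 depended on the length used, at 2.41 and 3.57 in knockouts and 2.39 and 2.89 in controls with all exons, but 0.73 and 1.08 in knockouts and 0.72 and 0.87 in controls with the longest coding transcript.

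Pyruvate dehydrogenase kinases shut pyruvate out of the citric acid cycle by phosphorylating pyruvate dehydrogenase. Pdk1 (ENSMUSG00000006494, chr2:71873224-71903858), the form known as a target of hypoxia-inducible factor, measured 78.3 and 126 CPM in knockouts, against 91.2 and 101 CPM in controls. The controls again lay between the knockouts, here with knockout 2 high. Pdk1 had a log2 fold change of 0.09 ± 0.23 (edgeR adjusted p = 0.89; 0.73-fold to 1.57-fold), with 0.40 without knockout 1 and -0.29 without knockout 2. Pdk2 held the largest share of kinase TPM, 47.7% and 47.3% in knockouts and 45.7% and 47.3% in controls, against 21.4% and 29.1% in knockouts and 26.1% and 26.2% in controls for Pdk1. Pdk4, the form induced by fasting, was named after its values were seen: it measured 3.13 and 13.5 CPM in knockouts, against 2.93 and 1.80 CPM in controls (log2 fold change 1.83 ± 0.69, edgeR adjusted p = 0.44), and without knockout 2 the log2 fold change was 0.42.

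**Figure D2:**
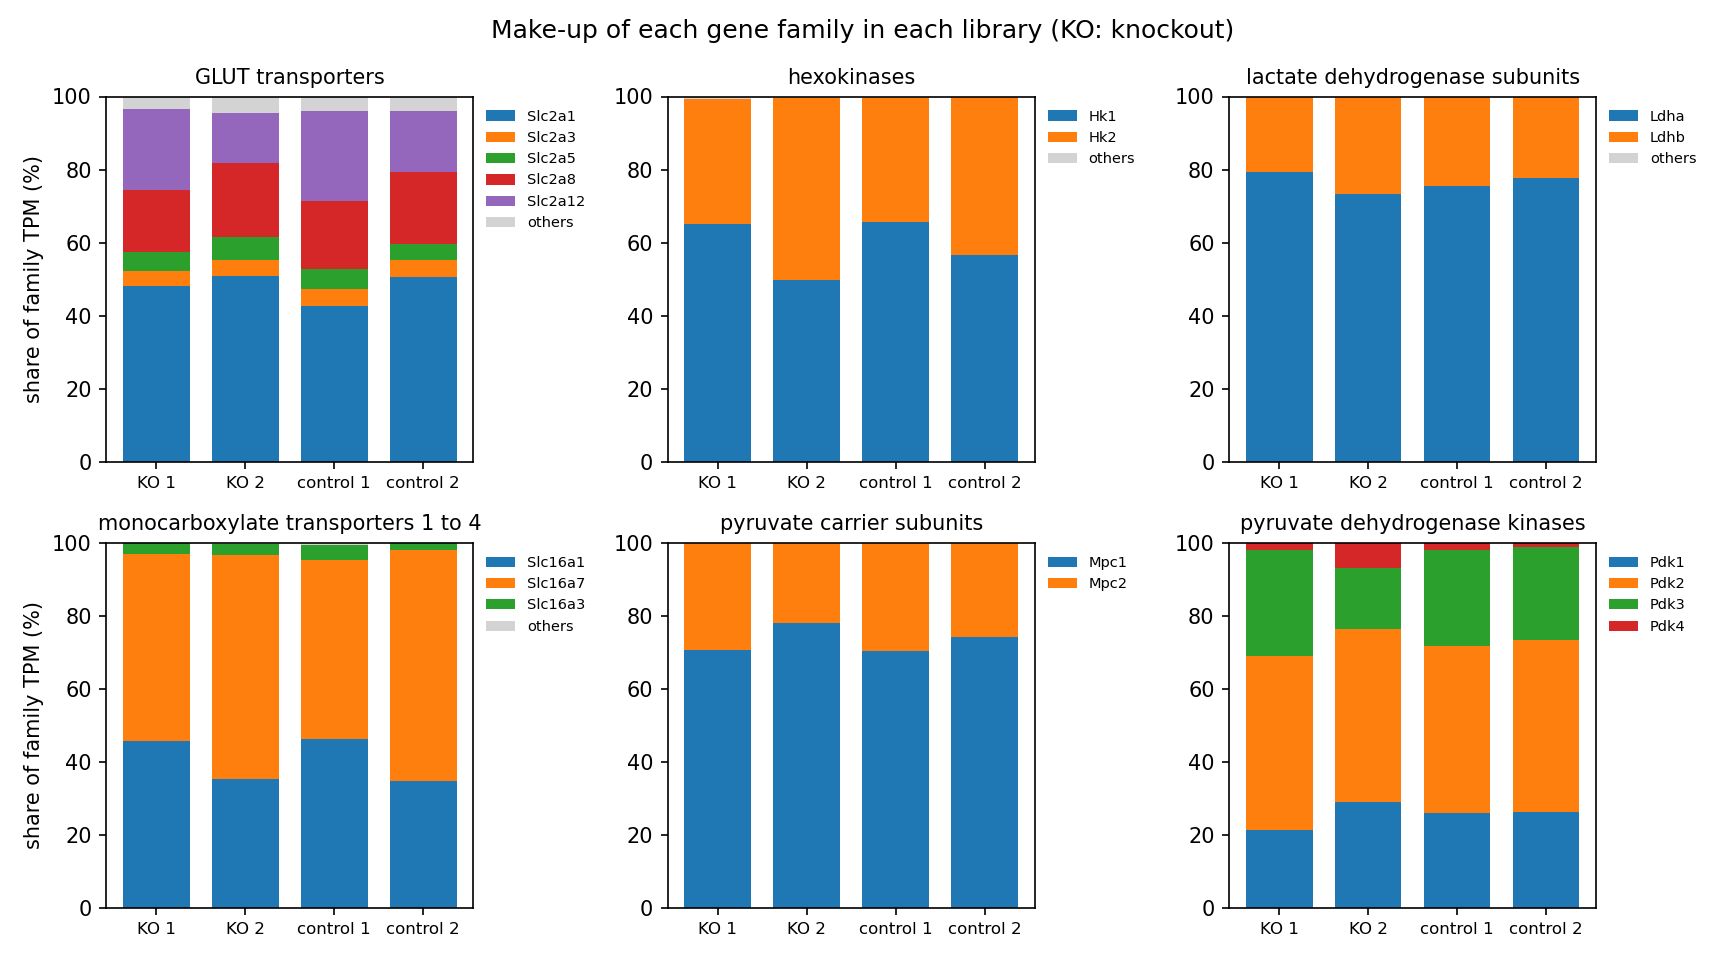
Share of each family's summed TPM (vertical axis, %) taken by its members in knockout and control libraries; members under 3% in every library are grouped as others. Ldha takes 73.4% to 79.4% of lactate dehydrogenase subunits, and the Mpc1 share rests on the union of annotated exons.

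Of the 10 genes, 0 passed edgeR's adjusted threshold of 0.05, where 0.00701% of all tested genes did, and 0 had an unadjusted p under 0.05, where 10.7% of all tested genes did (4.8% higher and 5.94% lower). DESeq2 and limma-voom also called 0 of the 10, as did edgeR without a count filter and with a replicate block, against 0.802%, 0.00701%, 1.79% and 0.743% of the genes they tested. Of the 10, 6 had a log2 fold change above 0 and 4 below, with a median of 0.09, beside a median of -0.02 over all tested genes. For each of the 10, the larger of the within-group log2 differences exceeded the difference between groups. This was not counted over all tested genes, so it does not set these genes apart. The intervals of Slc2a1, Hk1, Pkm, Ldhb, Mpc1 and Mpc2 lay within 1.5-fold either way, while those of Ldha, Hk2, Slc16a1 and Pdk1 did not, so that a change of that size was not excluded by the interval for these 4. A p above the threshold does not show that the groups are alike.

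**Figure D3:**
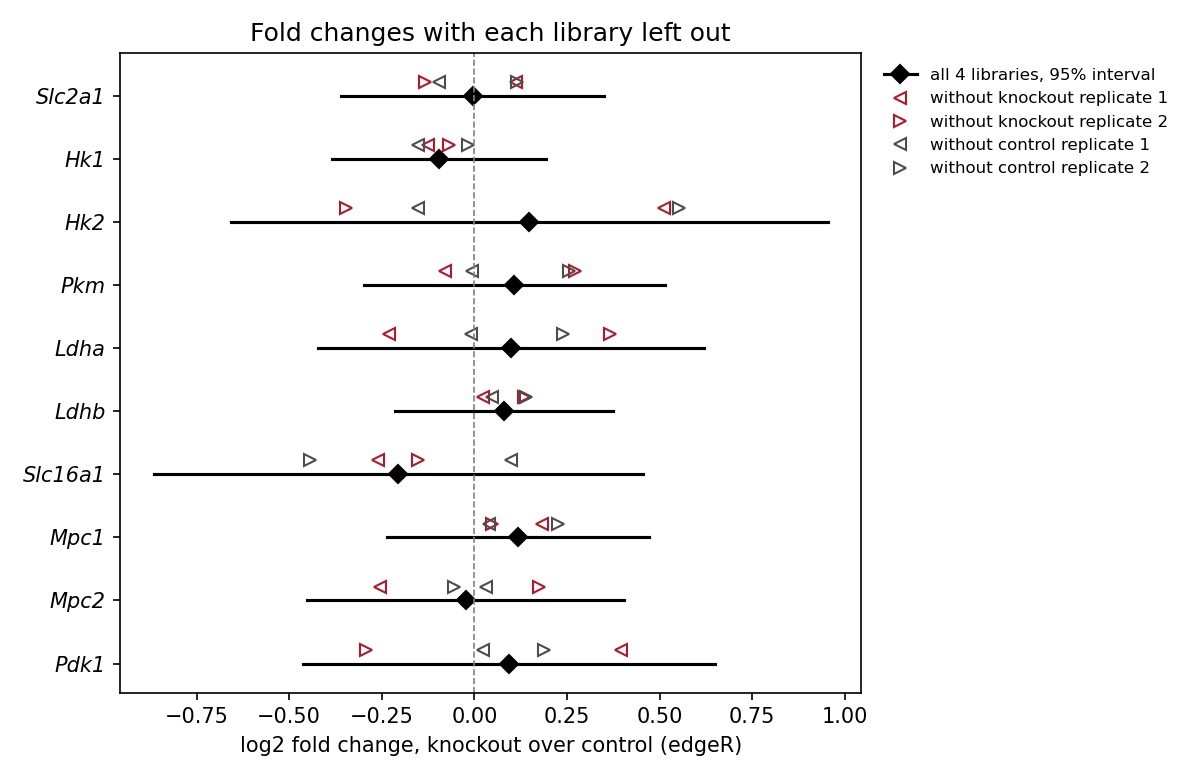
Log2 fold change of knockout over control (horizontal axis) for each gene with all 4 libraries (diamond, with its 95% interval) and with each library left out (triangles). Every interval spans 0, and leaving out single libraries moves Hk2 between -0.35 and 0.55 and Ldhb only between 0.02 and 0.14.

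A set of 5 ratios within a library, which do not depend on library scaling, were compared between groups with a two-sided exact permutation test, which with 2 libraries a group cannot give a p below 0.33. The log2 ratio of Ldha to Ldhb averaged 1.70 ± 0.34 in knockouts and 1.71 ± 0.11 in controls (SD, n = 2 each; exact permutation p = 1). That of Hk1 to Hk2 averaged 0.46 ± 0.65 in knockouts and 0.68 ± 0.40 in controls, and that of Mpc1 to Mpc2 averaged 1.55 ± 0.40 in knockouts and 1.39 ± 0.19 in controls. That of Slc16a1 to Ldha averaged -6.25 ± 0.34 in knockouts and -5.99 ± 0.56 in controls, and that of Pdk1 to Mpc1 -0.16 ± 0.39 in knockouts and -0.09 ± 0.02 in controls. The differences of these means were smaller than the SD of at least 1 of the groups for all 5 ratios, and the p adjusted over the 5 was 1 for each.

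The pathway around these genes was read from 11 lists holding 148 further genes, of which 126 were tested. None of the 126 passed edgeR's adjusted threshold, 12 (9.52%) had an unadjusted p under 0.05, where 10.7% of all tested genes did, and the median log2 fold change was 0.01. DESeq2 called 2 of them (Emb and Pck2), where it called 0.802% of all genes it tested. For limma-voom it was 0, against 0.00701% of all genes. Without a count filter edgeR called 5 (Ndrg1, Pdk4, Ddit4, Emb and Pck2), where it called 1.79% of all genes. With a replicate block it called Pck2, where it called 0.743% of all genes. The log2 fold change without knockout 1 was 1.80 for Txnip and 1.08 for Pck2, and without knockout 2 it was 0.38 and 0.60. Ndrg1, Pdk4 and Pck2 were named after their values were seen. Glycolysis (20 tested of 27 listed, the 3 genes Hk1, Hk2 and Pkm among them) had 10 genes above 0 and 10 below, with a median of -0.01. Aldoa, an aldolase, measured 560 and 469 CPM in knockouts, against 466 and 508 CPM in controls. Gapdh, the dehydrogenase at the centre of the pathway, measured 491 and 442 CPM in knockouts, against 375 and 452 CPM in controls, and neither passed (edgeR adjusted p = 0.85 and 0.67). Without knockout 1 the log2 fold change of Aldoa was -0.06, against 0.08 with all libraries.

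Among genes of lactate dehydrogenase and monocarboxylate transport (12 tested of 17, 6 above 0, 6 below, median -0.04), the transporters' chaperones stood out by level. Basigin, from Bsg, carries MCT1 and MCT4 to the membrane and measured 509 and 384 CPM in knockouts, against 357 and 368 CPM in controls (log2 fold change 0.30 ± 0.16, edgeR adjusted p = 0.53), with 0.08 without knockout 1 and 0.49 without knockout 2. Embigin, from Emb, the partner of MCT2, measured 335 and 289 CPM in knockouts, against 204 and 205 CPM in controls. Both knockouts lay well above both controls for Emb, with a log2 fold change of 0.61 ± 0.13 that did not pass in edgeR (adjusted p = 0.43) or limma-voom (0.44) but passed in DESeq2 (0.022). Slc16a7, which encodes that transporter, gave -0.16 ± 0.21 (edgeR adjusted p = 0.79). Values over this list ran from -1.20 for Slc16a6 to 0.61 for Emb, and only Emb had an unadjusted edgeR p under 0.05.

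Hexose transport (11 tested of 16, 4 above 0, 7 below, median -0.13) held Txnip, an arrestin that lowers glucose uptake through GLUT1 and GLUT4. Txnip measured 1419 and 3799 CPM in knockouts, against 1205 and 978 CPM in controls. Knockout 2 was far above the other 3 libraries: Txnip had a log2 fold change of 1.257 ± 0.43 (edgeR adjusted p = 0.43), 1.80 without knockout 1 and 0.38 without knockout 2. Its relative Arrdc4 measured 38.4 and 67.2 CPM in knockouts, against 47.7 and 31.7 CPM in controls (0.42 ± 0.31), with -0.04 without knockout 2 and 0.76 without knockout 1.

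Pyruvate entry to mitochondria (15 tested of 16, 10 above 0, 5 below, median 0.07) included the pyruvate dehydrogenase subunits Pdha1, at 246 and 230 CPM in knockouts and 229 and 225 CPM in controls, and Dld, at 92.9 and 90.1 CPM in knockouts and 76.9 and 87.6 CPM in controls. Pdk4 and Pdp2 alone in this list had an unadjusted edgeR p under 0.05, in opposite directions. Pdp2, named after its values were seen, measured 4.14 and 3.74 CPM in knockouts, against 5.87 and 8.40 CPM in controls. Its log2 fold change was -0.86 ± 0.29 (edgeR adjusted p = 0.43), with -0.55 without control 2 and -1.09 without control 1. In the citric acid cycle 15 of 17 tested genes lay above 0 and 2 below, with a median of 0.09, where 47.5% of all tested genes lay above 0. For 7 of the 17 both knockouts exceeded both controls and for 1 both lay below, shares to be read against the 21.3% and 23.6% of all tested genes. The direction over this list was not tested. Idh2, the NADP-dependent isocitrate dehydrogenase, gave 0.42 ± 0.18 and Sdhd, a subunit of succinate dehydrogenase, 0.13 ± 0.12 (edgeR adjusted p = 0.47 and 0.71). Idh2 gave 0.15 without knockout 2 and 0.64 without knockout 1. Other pyruvate enzymes (7 tested of 9, 2 above 0, 5 below, median -0.04) were led by Me1, malic enzyme (-0.03 ± 0.39), and Gpt, alanine transaminase (-0.35 ± 0.34). Both directions turned without control 1, where Me1 gave 0.77 and Gpt 0.08, while without control 2 Me1 gave -0.53 and without knockout 1 Gpt gave -0.76; without knockout 2 Me1 gave 0.0021. Pck2, the mitochondrial form of phosphoenolpyruvate carboxykinase, named after its values were seen, measured 38.3 and 53.3 CPM in knockouts, against 26.2 and 24.3 CPM in controls (0.86 ± 0.19; edgeR adjusted p = 0.43, DESeq2 adjusted p = 0.038).

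Among genes that set the rate of the pathway, all 5 regulators of fructose bisphosphate lay below 0 (median -0.44), as did 7489 of all 14259 tested genes. The direction over the list was not tested. Pfkfb2, a kinase that makes the activator of phosphofructokinase, measured 18.2 and 17.3 CPM in knockouts and 24.7 and 23.4 CPM in controls (-0.44 ± 0.15, edgeR adjusted p = 0.43). Tigar, a phosphatase with the opposite effect, gave -0.12 ± 0.19. Hypoxia factors and their targets outside glycolysis (20 tested of 22) had 10 above 0 and 10 below, with a median of 0.07. An unadjusted edgeR p under 0.05 was reached by 4 of them higher and 0 lower, where 4.8% and 5.94% of all tested genes did so. None passed the adjusted threshold, and the direction over this list was not tested either. Its most abundant genes were Ddit4, an inhibitor of mTOR signalling (0.70 ± 0.28, edgeR adjusted p = 0.46), and Egln2, a prolyl hydroxylase (0.32 ± 0.13, adjusted p = 0.46). Ddit4 measured 126 and 225 CPM in knockouts, against 96.2 and 119 CPM in controls, and without knockout 2 its log2 fold change was 0.23. Transcriptional regulators (12 tested) had 6 above 0 and 6 below, with Myc at -0.13 ± 0.15 and its partner Max at 0.37 ± 0.14; without control 1 Myc gave 0.05.

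In the shunts beside glycolysis, the pentose phosphate pathway (8 tested of 8, 4 above 0, 4 below, median -0.06) was led by Taldo1, transaldolase (-0.19 ± 0.25), and Tkt, transketolase (-0.21 ± 0.12). The NADH shuttles (9 tested of 9, 4 above 0, 5 below, median -0.02) were led by Mdh1, cytosolic malate dehydrogenase (-0.02 ± 0.17), and Slc25a11, the oxoglutarate carrier (0.09 ± 0.14). The edgeR adjusted p was 0.56 or more for these 4 genes. Single libraries turned 3 of them: without knockout 2 Taldo1 gave 0.15 and Mdh1 0.17, without control 2 Mdh1 gave 0.10, and without knockout 1 Slc25a11 gave -0.08.

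**Figure D4:**
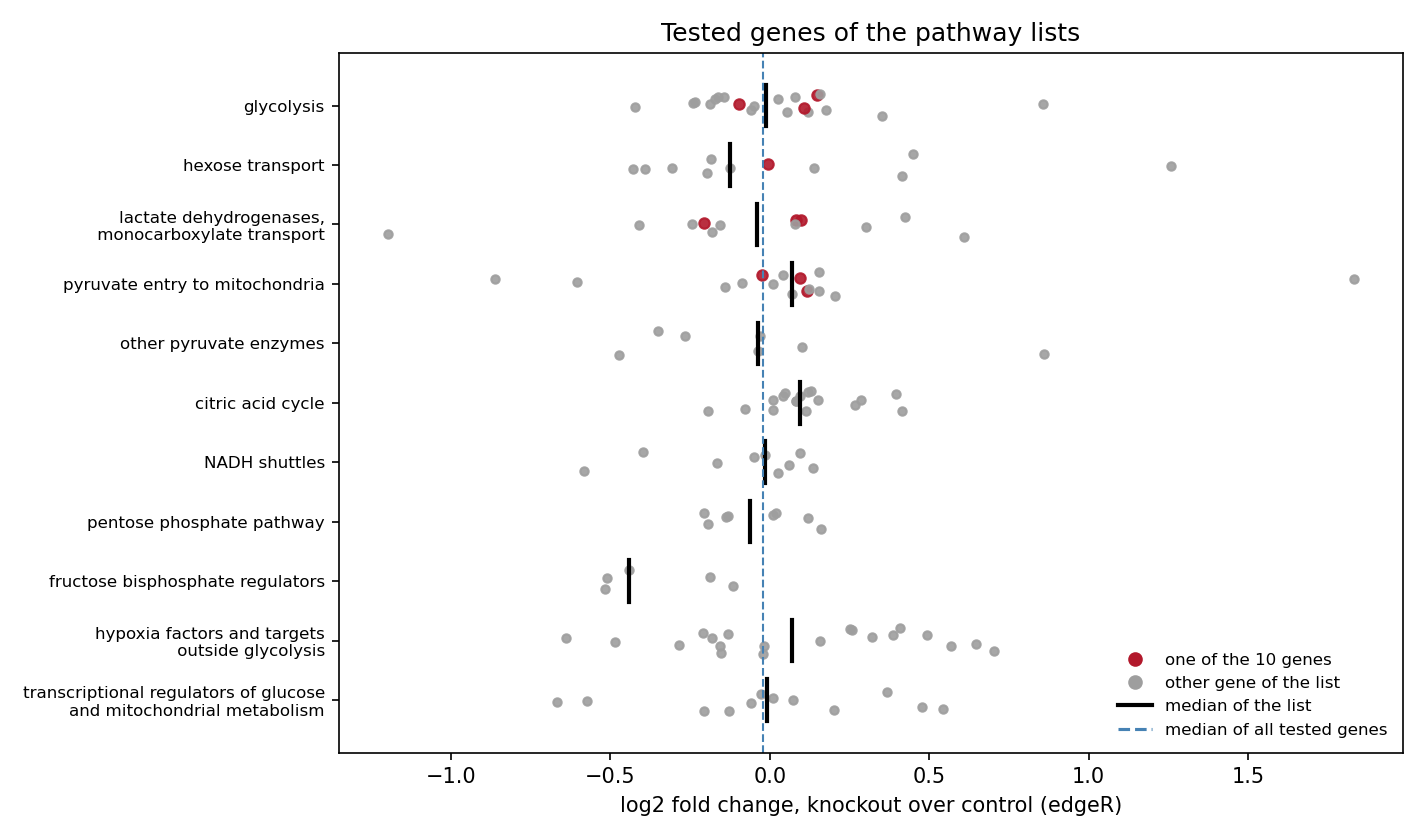
Log2 fold change of knockout over control (horizontal axis) for the tested genes of the 11 pathway lists; red points are the 10 genes of this account, grey points the others, black bars the list medians and the dashed line the median of all tested genes (-0.02). The 10 genes lie between -0.21 and 0.15, inside the spread of their lists.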

How the data were processed

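RNA from bulge cells of mouse skin was sequenced from directional, polyA-selected libraries, 2 per group. The deposited values are raw counts per Ensembl gene, made by the authors. The submitters' processing notes name Trim Galore 0.6.0, cutadapt, FastQC, STAR 2.7.0e, DESeq2 1.26.0 and GRCm38 (mm10); how reads were counted, whether by strand and against which annotation, the sources used here do not say, so antisense and near-identical genes are uncertain. All 55536 identifiers matched GENCODE M21, which gave symbols, positions, exon lengths and GC content.

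With R 4.3.3, genes were filtered by edgeR 4.0.16's filterByExpr, scaled by TMM and compared with its quasi-likelihood test (robust, no covariates) over all 14259 genes, with Benjamini-Hochberg adjustment at 0.05. The SE is the log2 fold change over the root of the F statistic, and intervals are 95%. For a symbol with several identifiers (Aldoa), the one with most counts was used. Replicate numbers of 2 pairs do not show a pairing. The 10 genes and the lists were chosen with earlier results of these data known. From each list the 2 most abundant other genes by TPM, and any past the threshold, were to be named; with 4 libraries, no genes of like pattern were sought. Alternatives were other scalings and filters, DESeq2 1.42.0, limma-voom (limma 3.58.1), a replicate block, length and GC correction (splines, 4 degrees of freedom), each library left out, and other transcript lengths.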

Additional observations from a re-analysis of the deposited data

How the results depend on the processing

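None of the 10 genes was called under any of the 12 alternatives, the replicate block (0 of 10) included; of their 120 refitted log2 fold changes, 103 kept their direction. Outside the fits with a library left out, 5 turned: Slc2a1 with RLE scaling (0.0098), DESeq2 (0.0096) and the length and GC correction (0.013), and with that correction Mpc2 (0.10) and Hk1 (0.061). With each library left out, values ran from -0.23 to 0.37 for Ldha, -0.26 to 0.18 for Mpc2, -0.081 to 0.27 for Pkm, -0.35 to 0.55 for Hk2, -0.29 to 0.40 for Pdk1, -0.44 to 0.10 for Slc16a1 and -0.13 to 0.12 for Slc2a1. Ldhb and Mpc1 never turned. The difference of log2 ratios, knockout minus control, ran from -0.25 to 0.24 for Ldha over Ldhb, -0.68 to 0.24 for Hk1 over Hk2, -0.12 to 0.44 for Mpc1 over Mpc2, -0.65 to 0.14 for Slc16a1 over Ldha and -0.34 to 0.21 for Pdk1 over Mpc1.

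Over all genes, edgeR called 1 higher and 0 lower (1532 at an unadjusted p under 0.05). Without a count filter it called 163 higher and 267 lower, DESeq2 called 33 and 68, and the replicate block 25 and 81, although nothing in the labels pairs the libraries (the numbers' deviations correlated at 0.12); with a library left out, 1 to 39 higher and 0 to 26 lower. The cause was not tested. Where a library is left out, the lone sample is assumed to vary like the other group. With 2 libraries per group, replicate spread limits what could be seen.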
